A study of Rattus norvegicus with 4 samples.

Results

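The genes that copy DNA in S phase and those that divide the chromosomes in mitosis were measured in cultured rat oligodendrocyte precursor cells (OPCs) after silencing of Gpr17, a G protein-coupled receptor of the oligodendrocyte lineage. The list held 44 genes, 20 of S phase and 24 of mitosis, taken by name for their known roles. A probe with a matching RefSeq accession was found for 40 of them, 18 of S phase and 22 of mitosis, out of 16568 named genes on the array. Mcm5, E2f2, Top2a and Cenpe had no matched probe and were not analysed here. Each gene was read from its brightest probe, and all 40 were well above background on all 4 arrays. They were among 11656 genes that passed the filter on dim probes, which asked that 2 or more of the 4 arrays be well above background.

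OPCs came from the pooled cerebral cortices of Sprague–Dawley rats at postnatal day 2 and were grown for 3 days with platelet-derived and basic fibroblast growth factors, which keep precursors dividing. They were then moved to a medium with thyroid hormone, which drives differentiation, and transfected with 50 nM of a pool of small interfering RNAs against rat GPR17 (siGPR17) or of a non-targeting pool (siNEG). RNA was taken after 48 h, at day 2 of maturation, from 2 independent samples per condition, and each was read on its own one-colour Agilent array. All 4 cultures were thus transfected and had left the proliferative medium. The arrays lay on 1 slide, with siNEG in one column and siGPR17 in the other, so column and treatment cannot be told apart.

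Signals are given as fluorescence after each array was scaled to the same 75th percentile, and a change is the log2 fold change of siGPR17 against siNEG from a limma model of all probes. The thresholds were those of the study's methods, a fold of 1.5 with an adjusted p under 0.07 (Benjamini–Hochberg). The silenced gene was lower in both siGPR17 samples. Gpr17 had signals of 1107 and 1113 in the siNEG samples and of 652.3 and 639.4 in the siGPR17 samples, a log2 fold change of -0.78 (standard error 0.085, limma adjusted p = 0.209).

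Cells enter S phase when cyclin E with its kinase releases E2F factors from the retinoblastoma protein. E2F then raises transcription of the licensing factors, the MCM helicase, the polymerases and the enzymes that supply nucleotides. Mitotic genes follow later: the DREAM complex holds them down in resting cells through a short promoter element, the cell cycle genes homology region (CHR), and B-MYB and FOXM1 turn them on in G2. OPCs are among the dividing cells of the postnatal brain, and they leave the cell cycle as they mature.

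Promoters are shown because these 2 waves of transcription are known for different promoter letters, and the members are given below in the same 2 classes. The RefSeq promoter table used here (assembly GRCr8, 250 bases before to 50 bases after the start, 300 in all) held 33 of the 44 genes, 14 of S phase and 19 of mitosis. The motifs, searched on both strands, were TTTCCCGC, TTTCGCGC, TTTGCCGC and TTTGGCGC for E2F, TTTGAA for the CHR, and CCAAT for the box bound by NF-Y. Matches of E2F on opposite strands may overlap. The windows below run from 150 bases before to 30 after the start, 5′ to 3′ on the gene's strand, with every match in capitals. They are from Mcm2 (chr4:122918065-122918244, minus strand), Mcm3 (chr9:30733717-30733896, minus strand), Cdk1 (chr20:19265143-19265322, plus strand), Cdc20 (chr5:137255770-137255949, minus strand) and Cenpf (chr13:103760857-103761036, minus strand).
Mcm2: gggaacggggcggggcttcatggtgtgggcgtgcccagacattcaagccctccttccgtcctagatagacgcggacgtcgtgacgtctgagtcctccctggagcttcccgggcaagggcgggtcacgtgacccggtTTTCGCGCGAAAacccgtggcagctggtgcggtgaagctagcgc
Mcm3: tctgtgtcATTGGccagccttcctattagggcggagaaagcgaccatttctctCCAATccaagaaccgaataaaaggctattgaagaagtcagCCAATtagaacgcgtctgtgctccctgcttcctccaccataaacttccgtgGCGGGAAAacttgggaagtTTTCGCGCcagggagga
Cdk1: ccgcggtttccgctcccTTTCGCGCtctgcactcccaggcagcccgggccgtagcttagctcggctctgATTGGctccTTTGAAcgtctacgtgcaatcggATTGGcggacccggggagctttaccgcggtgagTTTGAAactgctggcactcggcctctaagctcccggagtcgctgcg
Cdc20: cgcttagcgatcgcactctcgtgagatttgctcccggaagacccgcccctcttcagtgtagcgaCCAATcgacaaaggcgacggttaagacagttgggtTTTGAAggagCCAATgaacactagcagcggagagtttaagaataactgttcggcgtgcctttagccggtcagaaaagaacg
Cenpf: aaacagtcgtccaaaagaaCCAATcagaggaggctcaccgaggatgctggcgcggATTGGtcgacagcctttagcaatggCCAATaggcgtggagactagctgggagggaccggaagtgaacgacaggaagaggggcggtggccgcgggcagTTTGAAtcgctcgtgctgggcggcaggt

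An E2F spelling was present in 9 of 14 S phase promoters (64.3%) and in 1 of 19 mitosis promoters (5.26%), that of Cdk1, against 2.14% of all 33469 promoters in the table. TTTGAA was present in 13 of 19 mitosis promoters (68.4%) and in 1 of 14 S phase promoters (7.14%), against 18.3% of all promoters. That S phase promoter was the one of Mcm2, whose TTTGAA lies outside the window printed here. CCAAT occurred in 10 of 14 and 16 of 19, against 37.5% of all. In the windows, Mcm2 and Mcm3 carry E2F letters close to the start, Cdc20 and Cenpf carry TTTGAA and CCAAT, and Cdk1 carries all 3. A match describes the letters and does not show that a factor bound there.

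None of the 40 members passed the thresholds, and none reached a fold of 1.5, against 0.0% of all genes tested past the thresholds and 5.08% at that fold. In S phase, 11 of 18 members were lower and 7 higher in siGPR17, with a median log2 fold change of -0.05, a sign that turned when arrays were scaled on spike-ins (0.08). In mitosis, 21 of 22 were lower, with a median of -0.17, and under spike-in scaling 15 were lower with a median of -0.04. Of all genes tested, 48.0% were lower and the median was 0.01, which spike-in scaling moved to 0.14, a shift shared by every gene. The mitosis median lay 0.12 below the S phase median under either scaling, but by 0.01 when siGPR17 replicate 1 was left out. Under spike-in scaling the members Mcm3, Gins2, Bub1b, Ccnb2, Kif20a and Ttk stood at 0.09, 0.13, 0.01, 0.01, 0.08 and 0.11, above 0.

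**Figure D1:**
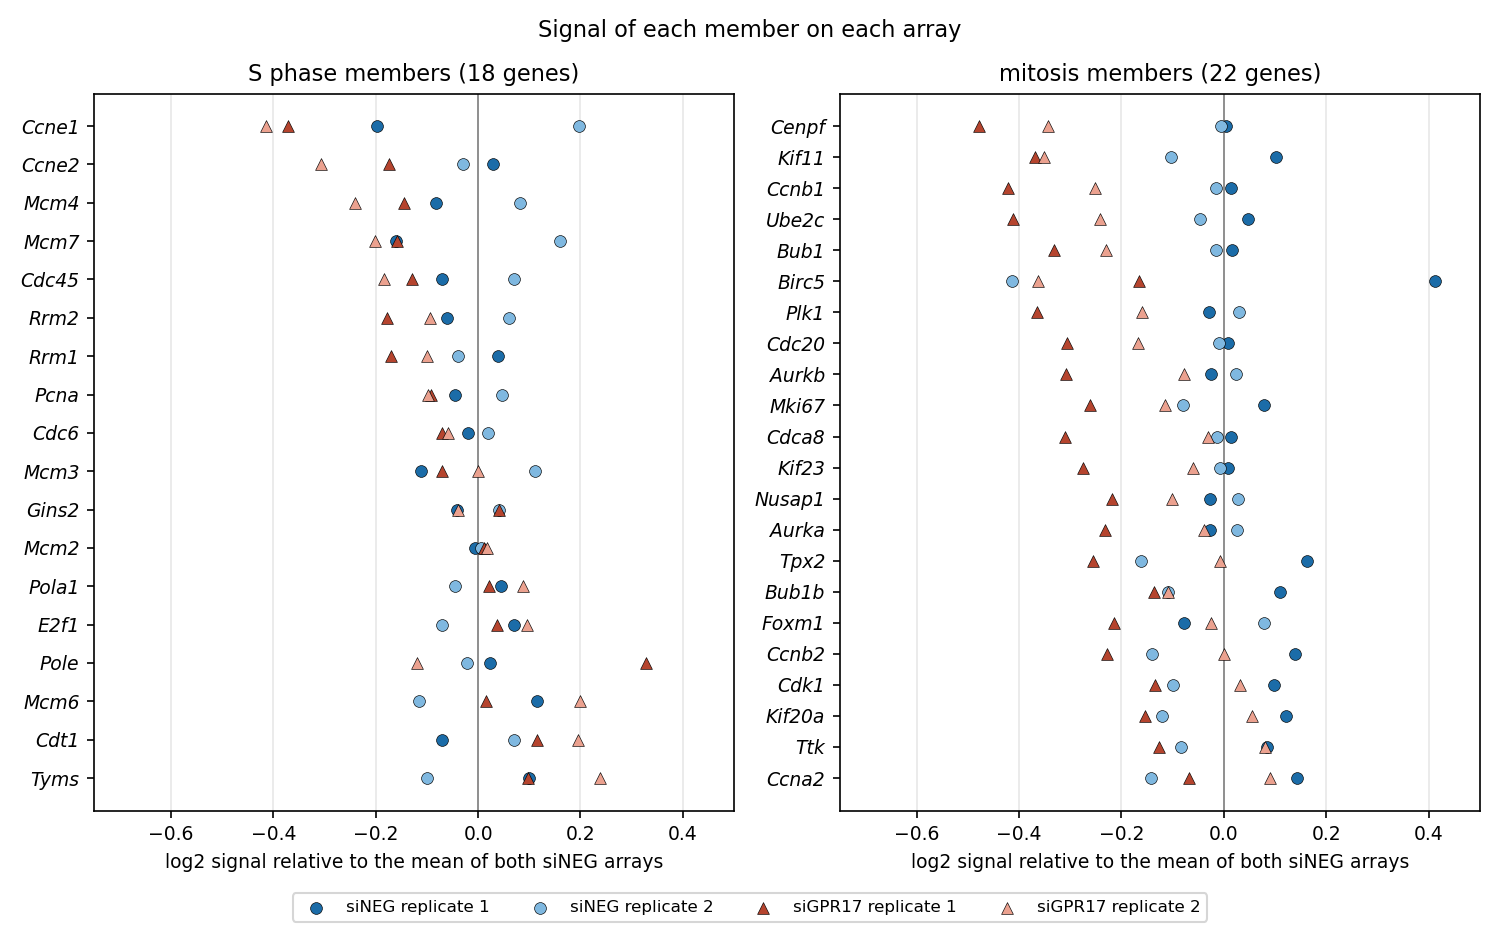
Signal of each member on each array, as log2 relative to the mean of both siNEG arrays (x axis), for 18 S phase and 22 mitosis genes ordered by their change; circles are siNEG and triangles siGPR17 samples. Under the 75th percentile scaling, both triangles lie to the left of both circles for 8 S phase and 13 mitosis members, and to the right for 2 S phase members (Mcm2 and Cdt1).

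At an unadjusted p under 0.05, no S phase member and 5 of 22 mitosis members were lower, against 8.73% of all genes tested, and none was higher, against 7.43%. The 5 were Cenpf, Kif11, Ccnb1, Ube2c and Bub1, with limma adjusted p from 0.22 to 0.277. The 5 became 0 under spike-in scaling and 1 with the replicate number as a block. Both siGPR17 samples lay below both siNEG samples for 8 of 18 S phase and 13 of 22 mitosis members, against 25.3% of all genes, and above them for 2 and 0, against 28.1%. These 23 members became 11 under spike-in scaling. Below the lower quartile of all changes, -0.15, lay 5 S phase members (27.8%) and 13 mitosis members (59.1%). In bulk samples, fewer dividing cells and less RNA per dividing cell cannot be told apart.

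A p that misses the threshold does not show that a gene was level, so the 95% interval of each change was also read. It stayed within a fold of 1.5 either way for 16 of 18 S phase members (all but Ccne1 and Pole) and for 17 of 22 mitosis members, against 67.6% of all genes tested. The 5 mitosis members outside were Cenpf, Kif11, Ccnb1, Ube2c and Birc5, each of whose intervals reached past a fold of 1.5 only downwards. The widest was that of Birc5, from -1.10 to 0.57.

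**Figure D2:**
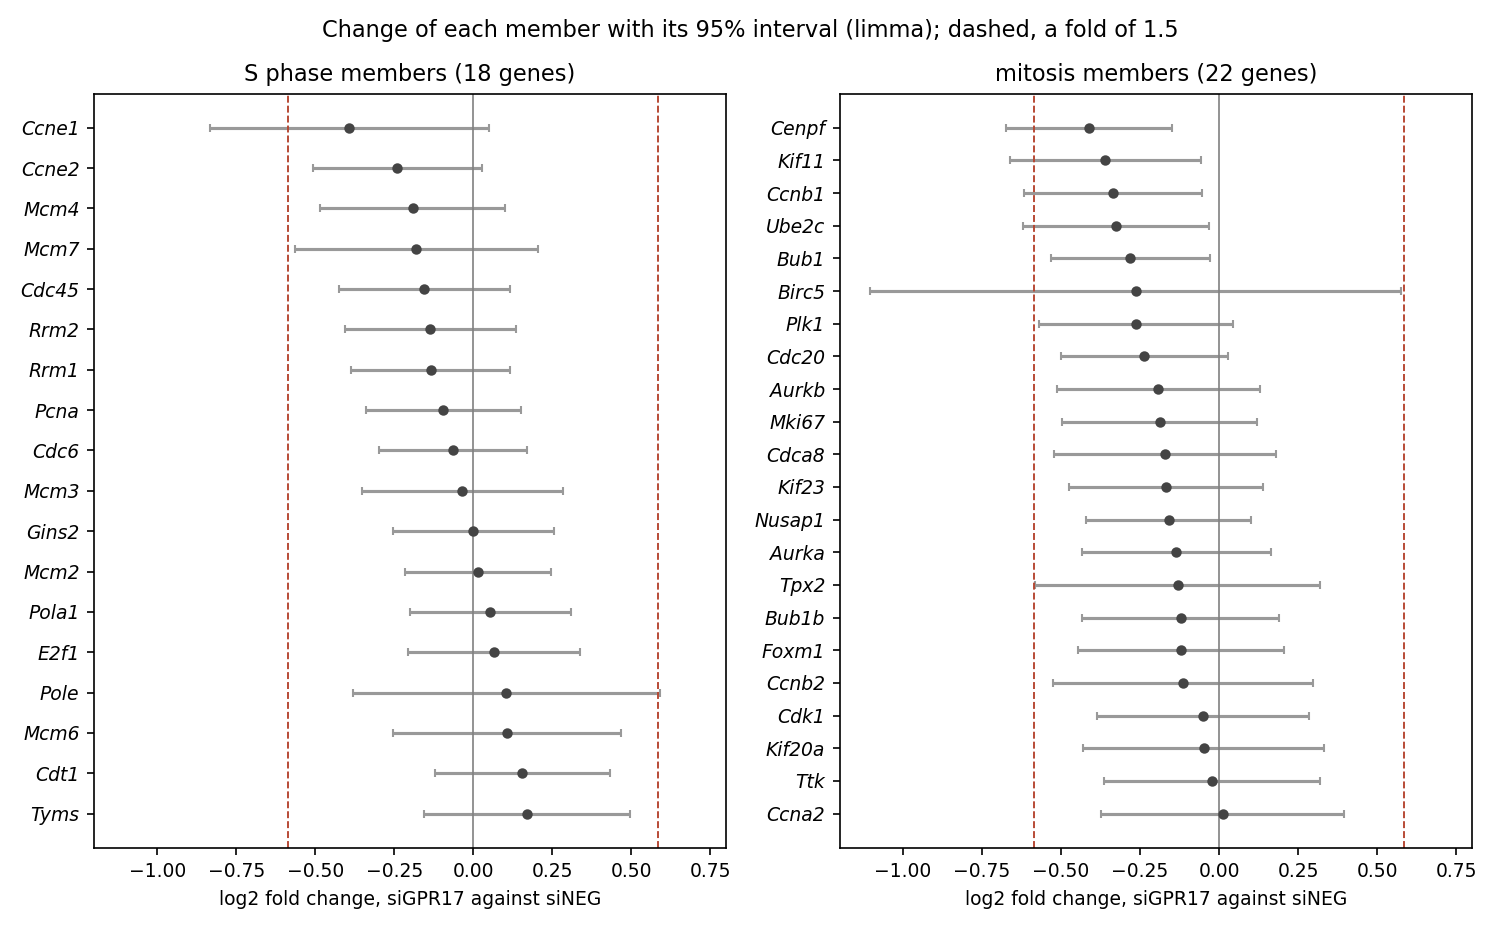
Log2 fold change of siGPR17 against siNEG (x axis) of each of the 40 members with its 95% limma interval (bars); dashed lines mark a fold of 1.5. The point estimates run from -0.39 to 0.17 in S phase and from -0.41 to 0.01 in mitosis, all inside the dashed lines.

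Among the S phase members, the MCM helicase, the ring that unwinds DNA at each fork, showed no common direction. Mcm2 had signals of 6393 and 6442 in siNEG and of 6468 and 6496 in siGPR17. All 4 samples lay close together, and the log2 fold change was 0.01 (standard error 0.084, 95% interval -0.22 to 0.24). Mcm4 had signals of 3847 and 4313 against 3686 and 3446, lower in both silenced samples, with a log2 fold change of -0.19. For Mcm7 the signals were 7741 and 9668 against 7750 and 7520, so the groups touched and siNEG replicate 2 stood high. Mcm6 gave 769.9 and 656.8 against 718.8 and 816.0, with overlapping groups and a log2 fold change of 0.11. Mcm3 also overlapped, at -0.03.

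Licensing factors load that helicase at origins. Cdc6 had signals of 224.1 and 230.4 in siNEG and of 216.4 and 218.3 in siGPR17, a narrow gap with a log2 fold change of -0.06 (standard error 0.085), or 0.06 under spike-in scaling. Cdt1, its partner in loading, had 73.25 and 80.81 against 83.28 and 88.09, higher in both silenced samples at 0.15. Cdc45 and Gins2 belong to the complex that activates the loaded helicase. Cdc45 had signals of 4870 and 5368 against 4676 and 4504, both silenced samples being lower, at -0.16. The change of Gins2 was under 0.01 in size, with a 95% interval of -0.25 to 0.25.

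Pcna, the sliding clamp that holds polymerases on DNA, had signals of 7454 and 7943 in siNEG and of 7222 and 7190 in siGPR17. Both silenced samples were slightly lower, at -0.09 (standard error 0.09), and spike-in scaling gave 0.03. Pola1 and Pole, catalytic subunits of the polymerases that prime and extend the leading strand, had overlapping groups, at 0.05 and 0.10. Rrm2, the regulated subunit of ribonucleotide reductase, had 17440 and 18970 against 16080 and 17040, and Rrm1, its large subunit, was close to it at -0.14 for each. Tyms, which makes thymidylate, had 123.8 and 107.9 against 123.7 and 136.4. Its groups touched, and its log2 fold change of 0.17 (limma adjusted p = 0.514) was the highest of the S phase members, but became 0.07 without siNEG replicate 2, under that of Cdt1.

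With all samples kept, the cyclins of S phase entry had the 2 lowest log2 fold changes of the class. Without siNEG replicate 1, Mcm7 stood at -0.34, below Ccne2 at -0.21. Ccne1, cyclin E1, had signals of 5607 and 7371 in siNEG and of 4970 and 4822 in siGPR17. The silenced samples were close together and below both controls, which differed more from each other, and the log2 fold change was -0.39 (standard error 0.16, limma adjusted p = 0.328). It lay between -0.59 and -0.20 as single samples were left out. Ccne2, cyclin E2, had 1490 and 1431 against 1295 and 1181, lower in both, at -0.24 (standard error 0.098, limma adjusted p = 0.328). E2f1, the activating E2F, had 957.9 and 868.4 against 935.9 and 974.1, with overlapping groups at 0.07, or -0.01 after normexp background correction. Several S phase values rested on siNEG replicate 2: without it Ccne1 stood at -0.20, Mcm4 at -0.11, Mcm7 at -0.02, Cdc45 at -0.09, Pcna at -0.05 and Rrm2 at -0.08. Cdt1 stood at 0.08 without siNEG replicate 1.

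In mitosis, the largest difference with all samples kept was that of a kinetochore gene, Cenpf. Without siNEG replicate 2, Birc5 at -0.68 and Kif11 at -0.46 lay below Cenpf at -0.42. Cenpf, an outer kinetochore protein, had signals of 488.3 and 485.1 in siNEG and of 349.3 and 383.6 in siGPR17. Its controls agreed closely and both silenced samples were lower, with a log2 fold change of -0.41 (standard error 0.096, limma adjusted p = 0.22), or 0.0727 as the adjusted p with limma's trend and robust options. Bub1, a kinase of the spindle checkpoint, had 2131 and 2086 against 1675 and 1798, also apart, at -0.28 (limma adjusted p = 0.276). Bub1b, which delays anaphase in the same checkpoint, had a control and a silenced sample at nearly the same level and a log2 fold change of -0.12.

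The cyclins and their kinase had mixed values. Ccnb1, cyclin B1, which drives entry into mitosis, had signals of 1394 and 1366 in siNEG and of 1031 and 1159 in siGPR17. Both silenced samples were lower, at -0.34 (standard error 0.1, limma adjusted p = 0.261). Cdk1, the kinase that cyclin B1 activates, had 12030 and 10490 against 10230 and 11480, so its groups overlapped and the log2 fold change was -0.05 (95% interval -0.39 to 0.28), 0.08 under spike-in scaling. Ccna2, cyclin A2, which acts in both S phase and G2, had 2716 and 2230 against 2348 and 2620, at 0.01. For both genes the interval includes differences as large as that of Ccnb1. Ccnb2 overlapped too, at -0.11. Foxm1, the forkhead factor that activates G2 genes, had 1416 and 1577 against 1288 and 1468, at -0.12, or 0.01 under spike-in scaling and -0.03 without siGPR17 replicate 1.

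The anaphase-promoting complex marks cyclin B1 for destruction, and the activator and the conjugating enzyme it uses were both lower in the silenced samples. Cdc20, the activator, had signals of 2548 and 2516 in siNEG and of 2049 and 2253 in siGPR17, at -0.24 (limma adjusted p = 0.328). Ube2c, the enzyme that starts the ubiquitin chain, had 2647 and 2480 against 1926 and 2167, at -0.33 (limma adjusted p = 0.277). With the probes used, each silenced sample lay below each control sample for both genes, as for 25.3% of all genes tested. The groups of the second Ube2c probe overlapped, at 1356 and 1149 in siNEG and 1030 and 1179 in siGPR17.

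Of the 6 mitotic kinases and passenger proteins, 4 had both silenced samples below both controls, against 25.3% of all genes tested. Plk1, which acts at centrosomes and kinetochores, had signals of 4275 and 4450 in siNEG and of 3385 and 3904 in siGPR17, lower in both at -0.26 (standard error 0.11, limma adjusted p = 0.339), or -0.16 without siGPR17 replicate 1. Aurkb, the kinase of the chromosomal passenger complex, had 237.0 and 245.3 against 194.7 and 228.6, at -0.19, or -0.08 without siGPR17 replicate 1. Its partner Birc5, survivin, had 1406 and 792.8 against 941.3 and 820.9. Birc5 was high in siNEG replicate 1 alone, and its log2 fold change of -0.26 became 0.15 without that sample. Aurka and Cdca8 were at -0.14 and -0.17 with groups apart, but siGPR17 replicate 2 was lower by little. Its signals were 2181 and 115.4, against 2200 and 116.8 in the lower control of each gene. Ttk overlapped at -0.02.

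Kif11, the motor that pushes spindle poles apart, had signals of 1904 and 1652 in siNEG and of 1373 and 1391 in siGPR17, apart and at -0.36 (standard error 0.11, limma adjusted p = 0.261). Of the other spindle and cytokinesis genes, Kif23 and Nusap1 had non-overlapping groups at -0.17 and -0.16, and Tpx2 and Kif20a overlapped at -0.13 and -0.05. For Kif23, siGPR17 replicate 2 was lower by little, at 689.9 against 716.0 in the lower control. Mki67, which coats mitotic chromosomes and is the usual marker of dividing cells, had 5840 and 5233 against 4611 and 5105. Both silenced samples were lower, siGPR17 replicate 2 by little, and the log2 fold change was -0.19 (standard error 0.11, limma adjusted p = 0.453), or -0.11 without siNEG replicate 1 and likewise without siGPR17 replicate 1.

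The mitosis members also varied together between replicates. In siGPR17, replicate 1 was below replicate 2 for 21 of 22 mitosis members (95.5%), with a median difference of -0.17, whereas this held for 10 of 18 S phase members and for 47.3% of all genes tested. In siNEG, replicate 1 was above replicate 2 for 17 of 22 mitosis members (77.3%), against 37.9% of all genes. As the median deviation from each gene's 4-sample mean, the mitosis members stood at 0.14 and 0.08 in the siNEG samples and at -0.18 and 0.00 in siGPR17 replicates 1 and 2. The S phase members stood at 0.01 and 0.05 against -0.04 and -0.03. The samples numbered 1 lay in one row of the slide and those numbered 2 in the other. Within these rows, the median log2 fold change was -0.32 and -0.06 for the mitosis members and -0.04 and -0.09 for the S phase members. Without siGPR17 replicate 1, the mitosis median was -0.09 with 17 of 22 members lower and none at an unadjusted p under 0.05. Without siNEG replicate 1, 15 of 22 were lower.

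**Figure D3:**
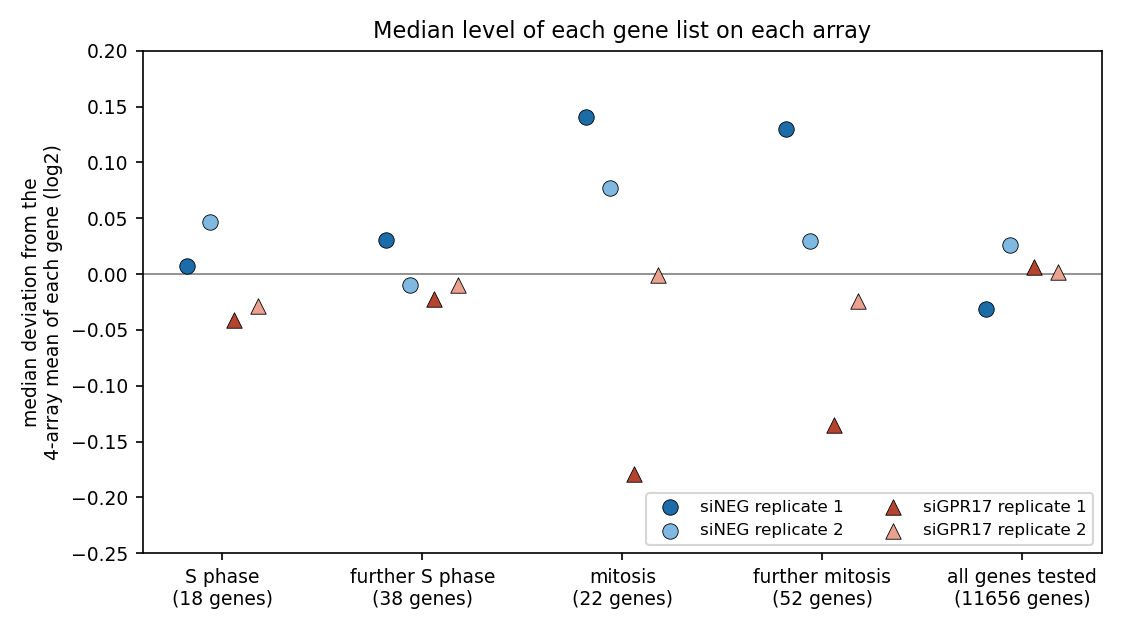
Median deviation of each gene list from the 4-array mean of its genes (y axis, log2) on each array; circles are siNEG and triangles siGPR17 samples. The mitosis members spread from 0.14 in siNEG replicate 1 to -0.18 in siGPR17 replicate 1, with siGPR17 replicate 2 near 0, while the S phase members stay between -0.04 and 0.05.

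Several members had more than 1 tested probe. For S phase genes, all probes had 1 sign in 5 of 6 genes and the 8 dimmer probes had a median log2 fold change of -0.06, none at an unadjusted p under 0.05. For mitosis genes, they had 1 sign in 5 of 7, and 8 of 9 dimmer probes were lower with a median of -0.08. The dimmer probe of Aurka gave -0.36 (limma adjusted p = 0.222) and that of Bub1b -0.47 (limma adjusted p = 0.261), further from 0 than the probes used. The second probe of Ube2c gave -0.18 (limma adjusted p = 0.54), nearer to 0 than the -0.33 of the probe used. The 3 dimmer probes of Mki67 gave -0.08, 0.02 and -0.06. A second Gins2 probe was well above background on 1 array only and was not tested.

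The changes were also set out by promoter letters. Mitosis members with TTTGAA had a median of -0.17 (12 genes) and those without it -0.28 (5 genes). Of the S phase members, the 8 with E2F letters had a median of 0.08 and the 5 without them -0.14. These are descriptions over few genes that share the same 4 arrays.

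Further genes of the same pathways were listed by role and read in the same way. Of 44 further S phase genes, 38 were tested, of which 23 were lower and 15 higher with a median of -0.03 (0.10 under spike-in scaling). At an unadjusted p under 0.05, 1 of the 38 was lower and none higher, against 8.73% and 7.43% of all genes tested. It was Cdc7, which fires licensed origins, and it had signals of 2098 and 2199 in siNEG and of 1789 and 1692 in siGPR17, at -0.30 (limma adjusted p = 0.261). Dscc1 was at -0.18, and Orc6, Chek1 and Pold3 were at 0.24, 0.21 and 0.17. The dimmest probe of Dscc1 gave 0.15, and without siGPR17 replicate 2 the probe used stood at -0.10.

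Of 68 further mitosis genes, 52 were tested, of which 40 were lower and 12 higher, with a median of -0.16 (-0.03 under spike-in scaling). At an unadjusted p under 0.05, 11 were lower and none higher, against 8.73% and 7.43% of all genes tested, and 24 had both silenced samples below both controls, against 25.3%. Spc25, a subunit of the NDC80 complex that holds microtubules at the kinetochore, had signals of 3027 and 3354 in siNEG and of 2233 and 2235 in siGPR17, at -0.51 (limma adjusted p = 0.21). Cdca5, sororin, which protects cohesion between sister chromatids, had 3325 and 3489 against 2514 and 2501, at -0.44 (limma adjusted p = 0.211). Mad2l1, of the spindle checkpoint, had 425.1 and 352.3 against 425.3 and 446.1, at 0.17, but its dimmest probe gave -0.43, and it stood at 0.04 without siNEG replicate 2. Gtse1 was not well above background in siNEG, and in siGPR17 it was higher by at least 1.55-fold, as the mean of both bright samples over the lowest measurable signal or its own, whichever was higher. It passed the filter only through the siGPR17 arrays, so that its direction is no finding.

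Lmnb1, lamin B1 of the nuclear envelope, stood apart in that list. It had signals of 19770 and 15340 in siNEG and of 7300 and 9520 in siGPR17. Both silenced samples lay far below both controls, with a log2 fold change of -1.06 (standard error 0.2, limma adjusted p = 0.21). It passed both thresholds with limma's trend and robust options (limma adjusted p = 0.0369) and after normexp (limma adjusted p = 0.0395), settings under which 1.58% and 0.961% of all genes tested passed. None of the 40 members passed under either.

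**Figure D4:**
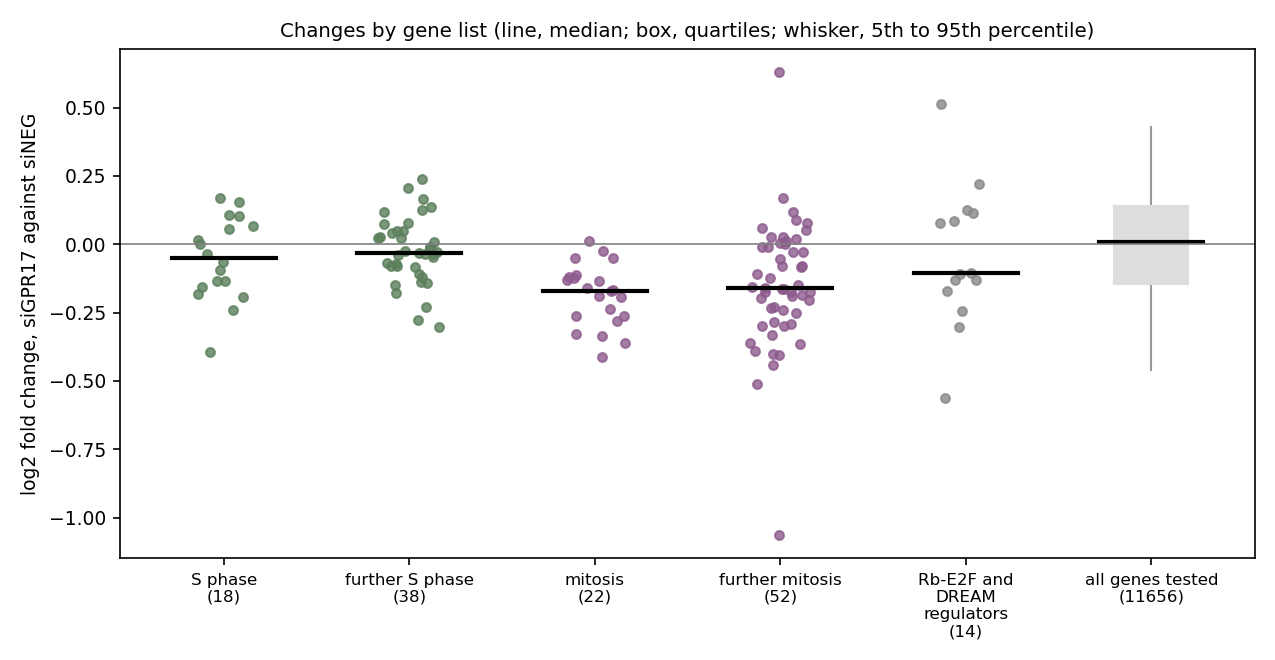
Log2 fold change of siGPR17 against siNEG (y axis) for each tested gene (points) of the S phase and mitosis members, of the further lists and of the regulators, with medians as lines; for all 11656 genes tested the box spans the quartiles and the whisker the 5th to 95th percentile. Under the 75th percentile scaling, the medians are -0.05 and -0.03 for the S phase lists, -0.17 and -0.16 for the mitosis lists and 0.01 for all genes.

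The regulators above these genes were both lower and higher. Of 18 genes of the retinoblastoma, E2F and DREAM proteins, 14 were tested, 8 lower and 6 higher, with a median of -0.11 that became 0.02 under spike-in scaling. Tfdp2, a dimerisation partner of E2F, had signals of 389.6 and 464.6 in siNEG and of 282.3 and 294.5 in siGPR17, at -0.56 (limma adjusted p = 0.216). E2f6, a repressor, had 2050 and 2126 against 1699 and 1687, at -0.30 (limma adjusted p = 0.249). E2f3, an activator, had 155.3 and 139.0 against 213.1 and 206.5, higher in both at 0.51 (limma adjusted p = 0.211). E2f4, the E2F of DREAM, was at -0.24 (-0.14 without siNEG replicate 2), while Lin37 and Tfdp1 were at 0.12 and 0.08. Lin37 lay between 0.07 and 0.18 as single samples were left out.

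Markers of the cultured cells were read beside these values. The lineage markers Sox10 and Olig2 were bright on all arrays, at 50580 to 57380 and at 57910 to 79880, and the list summed to 442600 and 516300 in siNEG and to 494200 and 510900 in siGPR17, with Mbp, a myelin protein, brightest. Of 5 precursor markers, 4 had a probe and all 4 were lower, against 48.0% of all genes tested. Gpr17 is among them, and as the silenced gene its fall does not speak for the precursor markers. The precursor list, Gpr17 included, summed to 46750 and 47490 against 38350 and 37780. Pdgfra, the receptor for the growth factor that keeps OPCs dividing, was its brightest gene, with signals of 17720 and 16500 against 14500 and 14650, at -0.23. Cspg4, the NG2 proteoglycan of precursors, was at -0.48 (limma adjusted p = 0.211). Their part in the result was not tested.

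Markers of other cell types were read in the same way. The 7 tested microglia genes of 9 were all lower, with sums of 3400 and 1852 in siNEG and 1974 and 2475 in siGPR17, Cx3cr1 being brightest and Csf1r and Ctss not above background. Of the markers that define microglia, Aif1 read 46.14 and 43.49 against 32.98 and 27.85. Cx3cr1 read 2512 and 1241 against 1338 and 1884, with overlapping groups at -0.15. Under spike-in scaling the microglia genes Itgam and Tmem119 stood above 0, at 0.09 and 0.10. The 6 tested astrocyte genes of 7 summed to 108500 and 122400 against 112000 and 113400, nearly all of it Aldoc, with Gjb6 not above background. Of these, 4 were lower and 2 higher: Gfap and Aqp4, which define astrocytes, were at -0.61 and -1.35, Aldoc at -0.03, and Aldh1l1 and Sox9 at 0.27 and 0.19. The 5 tested neuron genes of 6 summed to 6721 and 8014 against 6571 and 6303, with Map2 brightest and Neurod1 not above background. All 5 were lower, from Snap25 at -0.35 (limma adjusted p = 0.233) to Syt1 at -0.01, with Rbfox3, which defines neurons, at -0.11. Spike-in scaling put Rbfox3 and Syt1 above 0, at 0.02 and 0.12. Endothelial genes (2 of 5 tested, Kdr brightest at 0.68, Cdh5 at 0.33, with Pecam1 and Cldn5 not above background and Flt1 above it on 1 array only) summed to 303.2 and 313.4 against 457.1 and 451.8. Fibroblast and mural genes (2 of 7 tested, Col1a2 brightest, Col1a1 at 0.43, with Dcn, Lum, Pdgfrb and Rgs5 not above background and Col3a1 above it on 1 array only) summed to 427.2 and 313.9 against 448.8 and 428.2. With limma's trend and robust options, Aqp4, Gfap and Kdr passed both thresholds (limma adjusted p = 0.0203, 0.0616 and 0.0356), as did 1.58% of all genes tested. The part of any of these cells in the result was not tested.

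**Figure D5:**
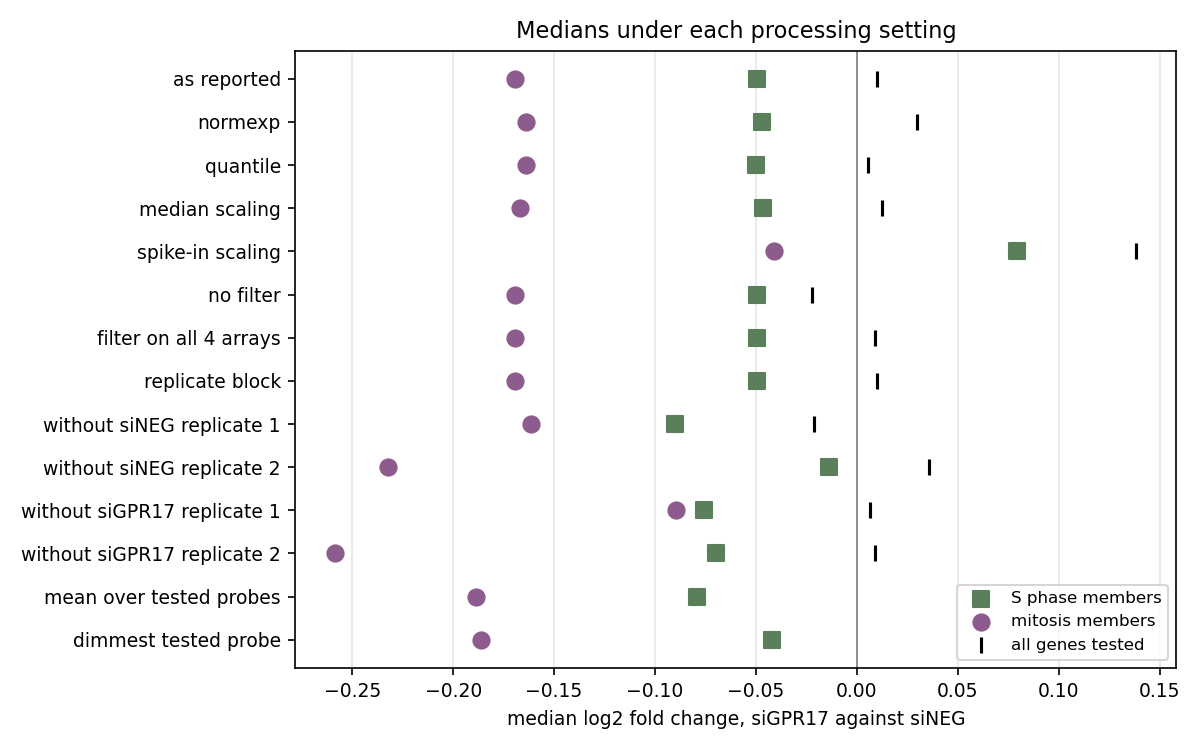
Median log2 fold change of siGPR17 against siNEG (x axis) of the S phase members (squares), the mitosis members (circles) and all genes tested (bars) under each processing setting (rows). The mitosis median is below 0 in every row shown and ranges from -0.26 without siGPR17 replicate 2 to -0.04 under spike-in scaling, where the median of all genes is 0.14.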

How the data were processed

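The deposited files hold spot intensity as the authors' scanner software wrote it (Agilent Feature Extraction 10.7.3.1, per the labels). The one-colour processed signal, corrected for background by that software, was used. Control and outlier spots were left out, spots of a probe were averaged (45598 probes, 0 saturated spots), log2 values were centred on each array's 75th percentile (564.94 to 624.11), and the 28016 probes that were well above background on 2 or more arrays were tested with limma 3.58.1 (lmFit, eBayes, two-sided) in R 4.3.3, with p-values adjusted over all of them. Accessions were named through the RefSeq gene table, which gave 21093 probes a symbol. Intervals and standard errors come from that fit. No test was run over the members as a list. The 2 against 2 samples allow 3 splits, so the smallest two-sided p of an exact permutation test is 0.333. The number of arrays limits the precision. The p-values rest on the spread between these samples, which the design text calls independent. In limma that spread is drawn from all tested probes as well as from the gene's own. For Mcm2 the standard error was 0.084 in limma and 0.0063 in a t-test, and for Ccne1 0.1613 and 0.1985.

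The members, the further lists, the markers and the tests were chosen with earlier results of these data known. Per-array values are given for representatives of each role, and for the 6 largest falls in each class. They are also given for the 3 largest rises in S phase and for Ccna2, the only mitosis member that was higher. In each further list, up to 3 falls and 3 rises with groups that did not overlap are named, some with per-array values and the others with their log2 fold change only. Some genes that this rule names are not reported here. Other genes are given by their log2 fold change. Lamins in the closing section were chosen after their values were seen. Alternatives were normexp (offset 50) on the spot median with the local background, since the spot mean was not used here, quantile, median and spike-in scaling (8 spike-in probes), no filter or a filter on all 4 arrays, the methods' t-test, limma's trend and robust options, a replicate block, leaving out each sample, and other probes of a gene.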

Additional observations from a re-analysis of the deposited data

How the results depend on the processing

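Of 800 values under alternative settings, 740 kept their direction and their side of the threshold or moved by less than the replicate spread. That count is no measure of robustness, since part of it was fixed in advance. Of the 800, 610 were of single genes, whose log2 fold change stays as it is under another filter, test or block. The dimmest probe is also the same probe where a gene has no other tested probe. No member passed the thresholds under any setting run, and all 40 were well above background on every array. Scaling on the 8 spike-in probes raised every gene: the S phase median was 0.079 with 7 members lower, the mitosis median -0.041 with 0 at an unadjusted p under 0.05 and the S phase count at 1, 11 members had groups apart, and the medians of the further S phase, further mitosis and regulator lists were 0.098, -0.033 and 0.022. Pcna, Cdc6, Cdk1 and Foxm1 turned to 0.034, 0.064, 0.077 and 0.0088. After normexp, 112 genes in all passed, Gpr17 among them at -0.66 (limma adjusted p = 0.0216), with 2 S phase members at an unadjusted p under 0.05, list medians of -0.0078 (further S phase) and -0.035 (regulators), and E2f1 and Ccna2 at -0.0094 and -0.0083. With trend and robust options 184 genes passed, Gpr17 among them at -0.78 (limma adjusted p = 0.0152), and 2 S phase members had an unadjusted p under 0.05, as had 1 under quantile scaling. Mitosis members at that p, 5 as reported, numbered 7 after normexp and with trend and robust options, 6 with the dimmest probe, 3 with no filter and 2 with the methods' t-test. With the mean of all tested probes the S phase median was -0.079 and the regulators' -0.050. With the dimmest probe the regulators' median was -0.0028, Mcm2 was at -0.021, Ccna2 at -0.023, Dscc1 at 0.15 and Mad2l1 at -0.43. The causes were not tested.

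As single samples were left out, the S phase median lay between -0.090 and -0.014, the mitosis median between -0.26 and -0.090, and their difference between 0.014 (without siGPR17 replicate 1) and 0.22 (without siNEG replicate 2), against 0.12. At an unadjusted p under 0.05 there were 0 to 2 S phase members and 0 (without siGPR17 replicate 1) to 3 mitosis members, against 0 and 5 with all samples. Mitosis members lower numbered 15 to 22, and members with groups apart 29 to 33, since a group of 1 overlaps less easily than the 2 against 2 that gave 23. The further S phase median lay between -0.041 and 0.018, the further mitosis median between -0.22 and -0.10, and the regulators' between -0.16 and -0.030. Birc5 lay between -0.68 and 0.15, Cdk1 between -0.15 and 0.047, Ccna2 between -0.13 and 0.15, E2f1 between -0.0046 and 0.14 and Mcm6 between -0.0074 and 0.22. In these fits the lone sample is assumed to vary like the other group.

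Samples with the same replicate number deviated from their group means with a correlation of -0.07 over all tested probes. They share a number and a row of the slide, and nothing in the labels pairs them. With the replicate number as a block, 1 mitosis member had an unadjusted p under 0.05 against 5 without it, and no gene passed the thresholds.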

Other observations

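The further mitosis genes at an unadjusted p under 0.05 in limma were 11 of 52 and each lower in siGPR17, against 8.73% of all genes tested that were lower and 7.43% that were higher, and 10 of them are named. Besides Lmnb1, Spc25 and Cdca5, they included Pttg1, securin, which holds back the protease that splits sister chromatids, at -0.33, and Smc2, a subunit of condensin, which compacts chromosomes, at -0.30. Ect2, the exchange factor that starts the cleavage furrow, was at -0.41. The centrosomal kinase Nek2 was at -0.40, the spindle motor Kif15 at -0.29, the spindle protein Ckap2 at -0.36 and Depdc1 at -0.39. The dimmer probe of Nek2 gave 0.19, in the other direction. The largest limma adjusted p of those named was that of Depdc1, at 0.285, and none passed the thresholds.

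The lamins, chosen after their values were seen, differed in direction. Lmnb1 was at -1.06. Lmnb2, the other B-type lamin, had signals of 1663 and 1704 in siNEG and of 1480 and 1445 in siGPR17, at -0.20 (limma adjusted p = 0.336), and Lmna, which makes the A-type lamins, had 5508 and 5980 against 6964 and 7374, at 0.32 (limma adjusted p = 0.261). The groups of each did not overlap, as for 25.3% of all genes tested in the lower direction and 28.1% in the higher, and under spike-in scaling the 3 stood at -0.93, -0.07 and 0.45. No gene of the 3 passed the thresholds in the fit reported here.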
